A study of Mus musculus with 12 samples.

Results

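T cell receptor variable (V) segments are the gene pieces that encode most of the antigen-contacting domain of each T cell receptor chain. The set described here comprised every row of the deposited read-count table annotated as a T cell receptor V gene that had at least 10 counts summed over the 12 libraries. These were 44 of 144 such rows, in a table of 54532 genes. Of the 100 rows left out, 54 had 1 to 9 counts and 46 had none. The 44 segments were 17 of 22 beta chain rows (Trbv), 22 of 108 alpha chain rows (Trav), 4 of 7 gamma chain rows (Trgv2 and the Tcrg-V genes) and 1 of 5 delta chain rows (Trdv4), and 2 unnamed rows gave none. The libraries were bulk mRNA-seq of B16-OVA mouse melanoma grown in the brain of wild-type C57Bl6 mice that also carried a flank tumor, implanted 3 days before the intracranial one. Each of 4 groups was represented by 3 tumors, each from its own mouse. NK cell-depleted (ΔNK) mice received anti-PD-1 and anti-CTLA-4 antibodies (PC blockade) together with a depleting antibody, named anti-Asialo-GM2 in the labels and anti-Asialo-GM1 in the methods. CD8H and CD8L mice received PC blockade alone, and IgG mice received control antibody. The design text gives antibody on days 5 and 7 after intracranial implantation and isolation on day 8, while the methods place both doses a day earlier. The study divided the PC-treated tumors into CD8H and CD8L by how many CD8+ T cells they held, so V segments, which T cells transcribe, cannot serve as independent evidence that those groups differ. The rule for members used these same counts, and 80.4% of the members' counts came from CD8H tumors. Only 19 members (16 beta, 1 alpha, 1 gamma and 1 delta) would have reached 10 counts over the 9 other libraries.

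During T cell development, 1 V segment is joined to a joining segment (and, in beta and delta chains, a diversity segment), and the joined exon is spliced to a constant region. A mature T cell therefore usually transcribes 1 productive beta chain with a single V segment, and most conventional T cells carry an alpha and a beta chain. The V segment supplies the first 2 antigen-contacting loops and the start of the third, CDR3, whose remainder is made at the junction. In bulk RNA the share of each V segment thus depends on how many T cells use it and how much of the transcript each cell holds. Fewer T cells and less receptor RNA per cell cannot be told apart here.

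V segment transcripts were most abundant in CD8H tumors and least abundant in ΔNK tumors. The members together had 1082, 443 and 312 counts in the 3 CD8H tumors. They had 32, 2 and 23 counts in ΔNK tumors, 98, 23 and 85 in CD8L tumors and 89, 26 and 69 in IgG tumors. Scaled to the total counts of each library, V usage was 50.4, 19.7 and 16.4 CPM (counts per 1000000 counts of the library) in CD8H tumors. It was 1.35, 0.122 and 1.16 CPM in ΔNK tumors, 3.71, 1.28 and 4.14 CPM in CD8L tumors and 4.63, 1.53 and 3.24 CPM in IgG tumors. Every CD8H tumor lay above the 9 other tumors, CD8L and IgG tumors overlapped, and ΔNK tumors overlapped CD8L tumors at their lower end while lying below all 3 IgG tumors. The second ΔNK tumor, with 2 V counts, both in Trbv2, lay below all others, at 0.122 CPM with an exact Poisson 95% interval of 0.0148 to 0.442. These and all other intervals given cover counting error only. Group means were 28.8 ± 18.8 CPM in CD8H, 0.879 ± 0.661 CPM in ΔNK, 3.04 ± 1.55 CPM in CD8L and 3.13 ± 1.55 CPM in IgG tumors (SD, n = 3 each).

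On the log2 scale, summed V usage was 3.95 higher in CD8H tumors than in the 9 other tumors (15.4-fold, two-sided exact permutation p = 0.00455, the smallest that 220 arrangements allow). After adjustment over the 12 tests of V usage and make-up the p was 0.0545, above the threshold of 0.05. CD8H tumors were chosen for high CD8+ T cell content, and 80.4% of the members' counts came from them. Their separation follows in part from these choices, so this p is no independent support for it. In ΔNK tumors the mean log2 CPM was -0.79, against 3.05 in the 6 PC-treated tumors, a difference of -3.84 (exact permutation p = 0.0357, adjusted p = 0.214). In the 6 PC-treated tumors the mean log2 CPM was 3.05, against 1.51 in IgG tumors, a difference of 1.54 (exact permutation p = 0.25, adjusted p = 0.427). The PC-treated tumors spread from 1.28 to 50.4 CPM, which spans all 3 IgG tumors. Their mean, here and below, depends on taking 3 CD8H and 3 CD8L tumors, which were sorted by CD8+ T cell content. It was not shown to stand for PC-treated mice as a whole. Comparisons of 3 against 3 tumors cannot go below an exact p of 0.10 and were left as values.

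**Figure D1:**
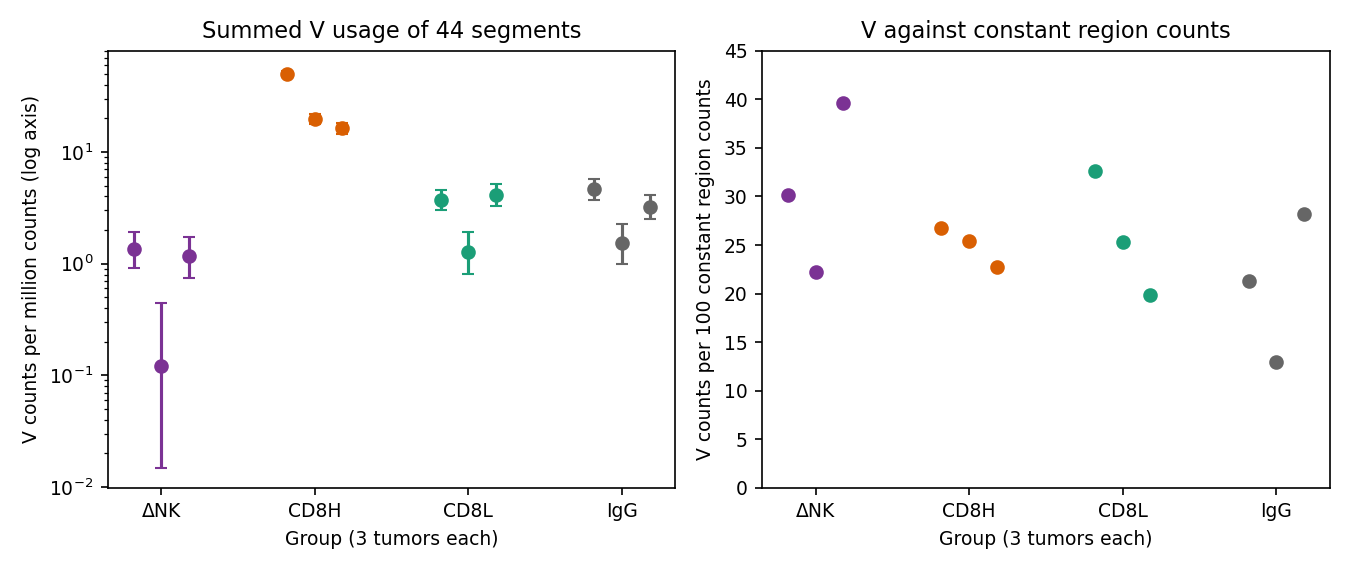
Left, summed counts of the 44 V segments as CPM (log axis) in each tumor, with exact Poisson 95% intervals as bars. Right, V counts per 100 counts of the T cell receptor constant region genes in the same tumors. The 3 CD8H tumors lie between 16.4 and 50.4 CPM, above the 9 others, while the ratio to the constant regions lies between 13.0 and 39.7 in all 12 tumors and the groups overlap.

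V counts went with the counts of the constant region genes, which every T cell receptor transcript of the chain contains. The 12 libraries held 13.0 to 39.7 V counts per 100 constant region counts. The ratio was 26.7, 25.4 and 22.8 in CD8H tumors, 30.2, 22.2 and 39.7 in ΔNK tumors, 32.7, 25.3 and 19.8 in CD8L tumors and 21.3, 13.0 and 28.2 in IgG tumors, and the groups overlapped. For the beta chain alone, CD8H tumors had 31.9, 28.9 and 25.8 Trbv counts per 100 Trbc1 and Trbc2 counts. For the alpha chain they had 16.4, 23 and 19.4 Trav counts per 100 Trac counts. Lists of the receptor pathway, chosen for their function, moved in the same direction, with the limit that CD8+ T cell numbers defined the CD8H tumors. In CD8H tumors against the average of ΔNK, CD8L and IgG tumors, 14.4% of the 17320 genes tested were called higher by edgeR's quasi-likelihood test (p and Benjamini-Hochberg adjusted p of at most 0.05, the rule for every call). In that comparison the calls took in all 5 tested constant region genes of 8 listed, all 4 CD3 genes, which encode the signaling subunits of the receptor, all 3 coreceptor genes (Cd4, Cd8a and Cd8b1) and all 15 genes of proximal receptor signaling. Their median log2 fold changes were 3.70, 4.23, 4.87 and 3.37, against 0.05 over all genes tested. In ΔNK against CD8H tumors the same 27 genes were all called lower, where 15.7% of all genes were. In CD8H against IgG tumors 0 of 5 constant region, 0 of 4 CD3, 1 of 3 coreceptor and 3 of 15 signaling genes were called higher. There 0.577% of all genes were. None of the 27 was called in ΔNK against IgG tumors, where 0.0173% of all genes were. Their median log2 fold changes there were -2.46, -2.58, -3.19 and -1.86. ΔNK against CD8L, CD8L against IgG and PC against IgG tumors gave no call among the 27 and none in the whole table. The recombinase genes Rag1 and Rag2, which developing lymphocytes use to join the segments, had 9 and 0 counts over all 12 libraries. Dntt, which encodes the terminal transferase that adds bases where segments are joined, had 53, 6 and 19 counts in CD8H tumors, against 1 to 18 in the others, so that the groups overlapped (1.56 ± 0.69 on the log2 scale, fitted change and its standard error, with an edgeR adjusted p of 0.114, for CD8H against the 3 other groups). The 5 thymocyte markers (Rag1, Rag2, Dntt, Ptcra and Cd1d1) summed to 4.14 to 9.13 CPM in CD8H tumors, against 0.591 to 2.03 CPM in the 9 others. Cd1d1, a gene that antigen-presenting cells also express, made up 142, 116 and 56 of those counts in CD8H tumors, and Ptcra 1, 2 and 3.

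Other cells moved with the same groups. Summed markers of NK cells were 19.5 to 31.9 CPM in CD8H, 0.735 to 0.970 in ΔNK, 3.22 to 11.6 in CD8L and 8.27 to 16.02 CPM in IgG tumors. Of the 6 markers, 1, 4 and 3 were at 0 in the ΔNK tumors and none elsewhere. The NK cell receptor gene Ncr1 had 1, 0 and 1 counts in ΔNK tumors, against 4 to 87 in the others. Summed markers of B cells were 12.4 to 21.5 CPM in CD8H tumors, against 1.41 to 6.45 CPM in the 9 others. Melanoma markers were 9865 to 17725 CPM in CD8H tumors, below the 18934 to 23402 CPM of the others. Neuron markers were 823 to 2911 CPM in CD8H tumors, within a range of 466 to 2034 CPM elsewhere for 2 of the 3. The part of these cells in the V segment differences was not tested. Library totals ran from 16336993 to 26416214 counts.

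Beta chain segments held 67.6% of the members' counts, alpha chain segments 22.2%, gamma chain segments 9.41% and Trdv4 0.832%. Beta segments made up 68.2%, 68.8% and 61.9% of V counts in CD8H tumors, 62.5%, 100% and 43.5% in ΔNK tumors (of 32, 2 and 23 counts), 68.4%, 47.8% and 70.6% in CD8L tumors and 80.9%, 76.9% and 66.7% in IgG tumors. No group stood apart in this share. The fit across all genes was open to few members, since 9 of 44 (Trbv1, Trbv2, Trbv3, Trbv13-1, Trbv13-2, Trbv16, Trbv19, Trbv20 and Trgv2) passed edgeR's filter on low counts, which a segment could pass through the CD8H tumors alone. Their count of calls is therefore no support for a difference of V segments as a set.

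**Figure D2:**
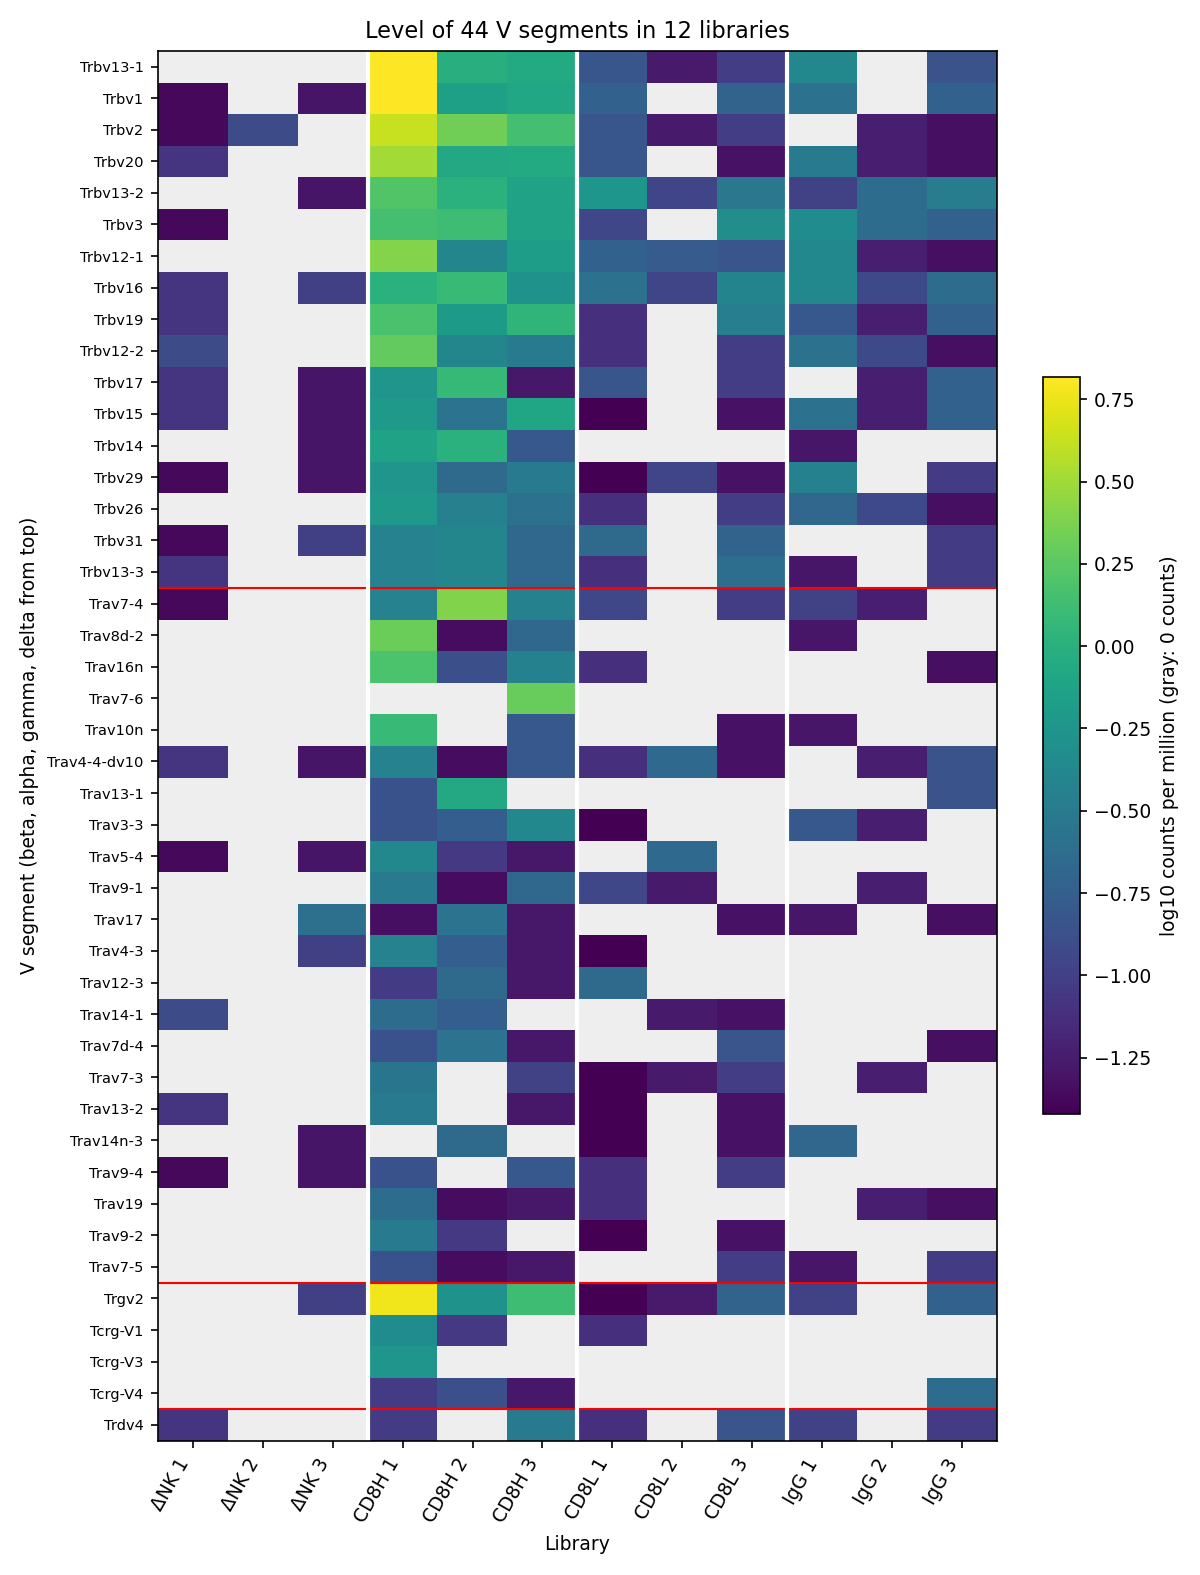
Level of each of the 44 V segments (rows, grouped by chain with red lines between chains) in the 12 libraries (columns), as log10 CPM in color, gray where the count was 0. All 17 beta segments have a count in each CD8H tumor, whereas alpha segments differ between CD8H tumors and the second ΔNK tumor has counts in Trbv2 only.

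Among the beta segments, Trbv13-1, Trbv1 and Trbv2 had the most counts. Parts of their coding sequences, and of those of the gamma segment Trgv2 and of the alpha segments discussed further on, are given because these segments carried the counts on which the differences rest. They were read from GENCODE M21 transcripts (GRCm38), in which all 144 V rows had the same coordinates as in the deposited table. Capitals mark the 3' end from the cysteine codon where the CDR3 loop begins, the part of the germline segment that is trimmed and joined during rearrangement. For each the last 300 coding bases are shown. The 3 beta segments and the gamma segment read as follows.

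Trbv13-1: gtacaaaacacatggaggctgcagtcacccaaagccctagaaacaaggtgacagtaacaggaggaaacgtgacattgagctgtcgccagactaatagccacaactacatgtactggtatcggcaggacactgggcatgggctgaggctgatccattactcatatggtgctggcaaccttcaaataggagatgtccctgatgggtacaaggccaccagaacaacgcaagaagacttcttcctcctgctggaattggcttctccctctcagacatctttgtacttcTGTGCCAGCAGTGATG
Trbv1: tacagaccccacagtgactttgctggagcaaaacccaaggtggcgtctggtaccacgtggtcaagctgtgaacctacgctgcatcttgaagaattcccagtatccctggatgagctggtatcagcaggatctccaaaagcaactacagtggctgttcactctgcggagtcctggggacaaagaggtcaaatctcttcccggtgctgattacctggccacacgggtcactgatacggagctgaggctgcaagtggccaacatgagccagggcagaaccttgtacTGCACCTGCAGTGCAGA
Trbv2: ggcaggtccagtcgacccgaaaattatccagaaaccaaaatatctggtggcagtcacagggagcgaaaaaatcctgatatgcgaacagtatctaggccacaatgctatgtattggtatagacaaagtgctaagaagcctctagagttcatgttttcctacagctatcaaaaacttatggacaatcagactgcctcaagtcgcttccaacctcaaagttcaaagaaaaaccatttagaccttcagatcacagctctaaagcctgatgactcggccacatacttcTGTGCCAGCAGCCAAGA
Trgv2: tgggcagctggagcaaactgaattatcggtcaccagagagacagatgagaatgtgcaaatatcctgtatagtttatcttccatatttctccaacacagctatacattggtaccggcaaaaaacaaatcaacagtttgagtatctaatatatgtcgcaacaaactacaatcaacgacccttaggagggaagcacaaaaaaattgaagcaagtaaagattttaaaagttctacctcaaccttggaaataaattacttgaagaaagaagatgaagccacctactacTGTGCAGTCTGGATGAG

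Trbv13-1 (ENSMUSG00000076467, chr6:41116007-41116468, plus strand of GRCm38) had 139, 22 and 17 counts in CD8H tumors. It had 0 counts in all 3 ΔNK tumors, 4, 1 and 2 in CD8L tumors and 8, 0 and 3 in IgG tumors. CD8H tumors did not overlap any other group, although the first CD8H tumor held most of the counts. At equal depth, the pooled ΔNK count was at least 56.4-fold lower than the pooled CD8H count, with the 0 set to 3 counts over the group. Since 139 of the 178 pooled CD8H counts came from the first tumor, this is no bound for each CD8H tumor. The log2 fold change over the average of ΔNK, CD8L and IgG tumors was 5.78 (standard error 0.91, edgeR adjusted p = 0.00284).

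Trbv1 (ENSMUSG00000076461, chr6:40891229-40891885, plus strand), the first beta segment of the locus, had 141, 16 and 16 counts in CD8H tumors. It had 1, 0 and 1 counts in ΔNK tumors, 5, 0 and 4 in CD8L tumors and 5, 0 and 4 in IgG tumors. The CD8H tumors were again all above the others, and the first of them held 19.1% of its beta counts in this segment (exact Clopper-Pearson 95% interval 16.3 to 22.1%), against 5.25% (3.03 to 8.38%) in the second and 8.29% (4.81 to 13.1%) in the third. Its log2 fold change over the same average was 4.82 (standard error 0.83, edgeR adjusted p = 0.00253).

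Trbv2 (ENSMUSG00000076462, chr6:41047340-41047995, plus strand) was the most even of the leading segments. It had 92, 48 and 27 counts in CD8H tumors, 1, 2 and 0 in ΔNK tumors, 4, 1 and 2 in CD8L tumors and 0, 1 and 1 in IgG tumors. Its share of the beta counts was 12.5%, 15.7% and 14.0% in the 3 CD8H tumors. In the IgG tumors it was 0%, 5.00% and 2.17%, with upper 95% bounds of 4.99%, 24.9% and 11.5%. Trbv2 was the sole member called by edgeR in CD8H against IgG tumors, at a log2 fold change of 6.01 (standard error 0.88, edgeR adjusted p = 0.0490), where 0.577% of all genes were called higher. This call was close to the threshold. Its adjusted p ranged up to 0.228 when 1 library was left out, and it was past 0.05 without the first or the third ΔNK tumor, the first or second CD8H tumor, the first or second CD8L tumor, or any IgG tumor. In these fits 0% to 0.0111% of all genes were called in either direction, against 0.745% with all libraries. DESeq2 called 7 of the 9 tested members in this comparison and 12.1% of all genes, and limma voom 1 member and 4.48% of all genes. At equal depth the 167 counts over CD8H tumors against 2 over IgG tumors gave a ratio of 76.2 (exact 95% interval 20.8 to 635).

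Trgv2 (ENSMUSG00000076754, chr13:19336573-19337167, minus strand), a gamma chain segment, had 127, 12 and 25 counts in CD8H tumors. It had 0, 0 and 2 counts in ΔNK tumors, 1, 1 and 4 in CD8L tumors and 2, 0 and 4 in IgG tumors. CD8H tumors did not overlap the others, and their log2 fold change over that average was 5.10 (standard error 0.80, edgeR adjusted p = 0.00166). The gamma constant region gene Tcrg-C2 had 478, 97 and 132 counts in CD8H tumors, against 1, 0 and 2 in ΔNK, 2, 4 and 17 in CD8L and 24, 3 and 11 in IgG tumors. The delta constant region Trdc, by contrast, had 25, 27 and 28 counts in CD8H tumors, 5, 2 and 0 in ΔNK, 0, 4 and 7 in CD8L and 10, 16 and 9 in IgG tumors. Thus Tcrg-C2 and Trgv2 were highest in the first CD8H tumor, while Trdc was even across the 3.

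The remaining gamma and delta members were sparse. Tcrg-V3 had all of its 12 counts in the first CD8H tumor, where the constant region gene Tcrg-C3 had 34 of its 36 counts over all libraries. Tcrg-V1 had 10, 2 and 0 counts in CD8H tumors, and its other 2 counts were in the first CD8L tumor. Its coding sequence is 94.9% identical to that of Trgv2, its nearest neighbor in sequence. Tcrg-V4 had 2, 3 and 1 counts in CD8H tumors and 5 in the third IgG tumor. Trdv4, the delta segment, had 2, 0 and 6 counts in CD8H tumors, 2, 0 and 0 in ΔNK, 2, 0 and 3 in CD8L and 2, 0 and 2 in IgG tumors, with overlap throughout.

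The other beta segments that could be tested were Trbv20, Trbv13-2, Trbv3, Trbv16 and Trbv19. Trbv20 had 69, 19 and 17 counts in CD8H tumors, and its log2 fold change over the average of ΔNK, CD8L and IgG tumors was 4.41 (standard error 0.73, edgeR adjusted p = 0.00221). Trbv13-2 had 35, 23 and 14 counts in CD8H tumors, 0, 0 and 1 in ΔNK, 15, 2 and 6 in CD8L and 2, 4 and 7 in IgG tumors. Trbv3 had 31, 30 and 14 counts in CD8H tumors, 1, 0 and 0 in ΔNK, 3, 0 and 10 in CD8L and 9, 4 and 4 in IgG tumors. The log2 fold changes over that average were 3.18 for Trbv13-2 and 3.36 for Trbv3 (standard errors 0.56 and 0.66). Trbv19 had 32, 14 and 21 counts in CD8H tumors and a log2 fold change of 3.50 (standard error 0.67). Trbv16 had 22, 28 and 10 counts in CD8H tumors, 2, 0 and 2 in ΔNK, 7, 2 and 8 in CD8L and 8, 2 and 5 in IgG tumors. Its log2 fold change was the smallest of the 9 tested members, at 2.40 (standard error 0.50, edgeR adjusted p = 0.00661). All 9 tested members were called higher in CD8H tumors by this contrast, with the background of 14.4% given above.

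Against single groups the calls were fewer. In CD8H against CD8L tumors 5 of 9 tested members were called higher (Trbv1, Trbv2, Trbv13-1, Trbv20 and Trgv2), where 6.03% of all genes were. The largest log2 fold change of these was 4.69 for Trgv2 (standard error 1.17, edgeR adjusted p = 0.0324) and the smallest adjusted p was that of Trbv2 (0.0165). That count was 0 without the first CD8H tumor, without the first CD8L tumor or without the second CD8L tumor, and 8 without the third CD8L tumor. It followed the whole table, of which 0.0112%, 0%, 0% and 22.5% of genes were called in those 4 fits, against 11.2% with all libraries. DESeq2 called 8 members and 24.2% of all genes in this comparison, and limma voom 4 members and 13.7%. CD8L against IgG tumors gave no called member, and no gene in the table, at a median log2 fold change of -0.07 over the 9 members. At an unadjusted p of at most 0.05, 0 of the 9 members and 2.19% of all genes passed in that comparison. PC against IgG tumors likewise gave no call, with 2 of 9 members and 4.18% of genes at an unadjusted p of at most 0.05. DESeq2 and limma voom called no member in CD8L or PC against IgG tumors. DESeq2 called 0.00577% and 0.115% of all genes there, and limma voom 0% in both.

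In ΔNK against CD8H tumors all 9 tested members were called lower, where 15.7% of all genes were. The log2 fold changes ran from -8.84 for Trbv13-1, whose ΔNK count was 0 so that the fitted value is no bound, to -3.62 for Trbv16. For Trbv2 the value was -5.46 (standard error 0.84, edgeR adjusted p = 0.00175). In ΔNK tumors against the average of CD8H and CD8L, 4 members were called lower (6.99% of all genes were), namely Trbv13-2 at -4.74, Trbv3 at -4.40, Trbv2 at -3.21 and Trbv16 at -2.74. That count was 0 without the first or the second ΔNK tumor, 1 without the third ΔNK, the first CD8H or the third CD8L tumor, and 2 without the first CD8L, the second IgG or the third IgG tumor. Those fits called 3.79% to 11.2% of all genes in either direction, against 10.1% with all libraries. DESeq2 called 8 members and 22.7% of all genes here, and limma voom 2 members and 9.21%. In ΔNK against CD8L and against IgG tumors edgeR called no member (0 and 0.0173% of all genes were). DESeq2 called no member but 0.872% and 5.32% of all genes, and limma voom no member and 0% of all genes in both. By edgeR, 3 of the 9 members had an unadjusted p of at most 0.05 in each comparison, where 6.07% and 15.0% of all genes did. Trbv13-2 had 1 count over the 3 ΔNK tumors against 13 over the IgG tumors, a ratio at equal depth of 0.0739 (exact 95% interval 0.00174 to 0.492). Trbv3 had 1 against 17 counts, a ratio of 0.0565 (0.00135 to 0.361). Trbv16 had a ratio of 0.256 (0.0619 to 0.805), and Trbv13-1 had 0 against 11 counts. The intervals of Trbv1 (0.0225 to 1.03), Trbv19 and Trbv20 (0.0249 to 1.20 each) and Trgv2 (0.0316 to 1.79) included 1. Trbv2 went the other way, with 3 against 2 counts, a ratio of 1.44 (0.165 to 17.3). These intervals pool the tumors of a group, and none of these segments was called.

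**Figure D3:**
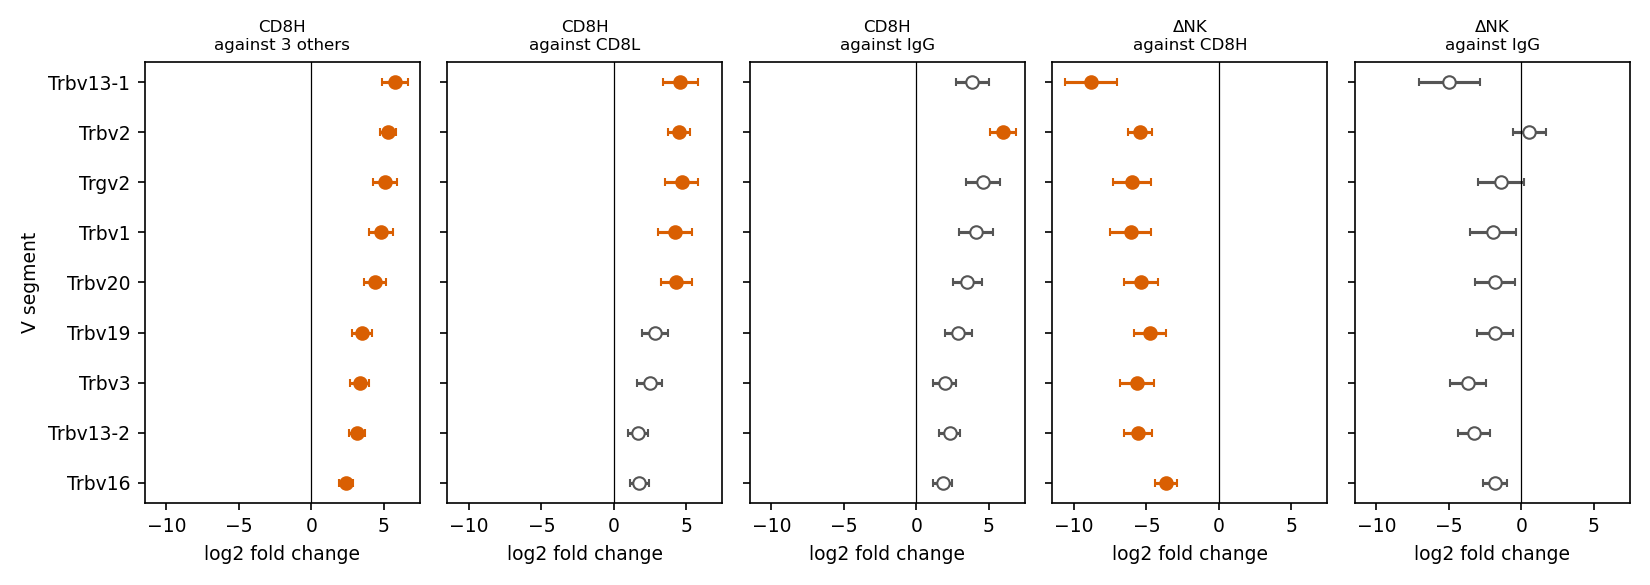
Log2 fold change of the 9 V segments that passed the filter, in 5 comparisons, with standard errors as bars. Filled orange points were called by edgeR and open points were not, with 9 called in CD8H against the 3 other groups and in ΔNK against CD8H, 5 in CD8H against CD8L, 1 (Trbv2) in CD8H against IgG and none in ΔNK against IgG tumors.

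Over all 44 members, 15 had every CD8H tumor above the 9 other tumors (12 of 17 beta, 2 of 22 alpha and 1 of 4 gamma segments), and 9.43% of the 24142 genes with at least 10 counts did so. Against the IgG tumors alone, 21 members had all CD8H tumors higher, and 13.3% of those genes did. These counts rest on members that had to reach 10 counts, which most did through CD8H tumors. Besides the tested segments, the list of 15 took in Trbv14, with 16, 23 and 3 counts in CD8H tumors, 0, 0 and 1 in ΔNK, none in CD8L and 1, 0 and 0 in IgG tumors. The beta segments outside this list were Trbv12-1, Trbv13-3, Trbv17, Trbv29 and Trbv31. Of these, Trbv17 had 12, 27 and 1 counts in CD8H tumors, so that the third lay within the range of 0 to 4 counts of the other groups. Trbv12-1 and Trbv12-2, the segment family used by the ovalbumin-specific OT-I receptor, had 54, 9 and 13 and 41, 9 and 6 counts in CD8H tumors. In IgG tumors they had 8, 1 and 1 and 5, 2 and 1 counts. Their shares of the beta counts in the first CD8H tumor, 7.32% and 5.56%, were below those of Trbv1 and Trbv13-1. Scaled to library totals, Trbv12-1 was at 0.401 CPM in the second CD8H tumor, below the 0.416 CPM of the first IgG tumor.

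The beta and alpha chains differed in how alike the CD8H tumors were. All 17 beta segments had a count in each CD8H tumor, against 13 of 22 alpha segments. The CD8H tumors had 738, 305 and 193 beta counts, against 191, 121 and 87 alpha counts. Only 1 alpha member, against 16 beta members, would have reached 10 counts outside CD8H tumors. An alpha segment high in a single CD8H tumor could thus become a member, so the chains were not compared on equal terms. The Morisita overlap index, which is near 1 where 2 libraries draw on the same shares and 0 where they have no segment in common, was 0.738 to 0.895 between CD8H tumors for the beta chain. For the alpha chain it was 0.194 to 0.251 between CD8H tumors, and 0.241 to 0.445 between each of them and the first CD8L tumor, the only other library with enough alpha counts (26). These values are descriptive, over 3 pairs of libraries that share their members, with 193 to 738 beta and 87 to 191 alpha counts a library. Between CD8H and IgG tumors the beta index was 0.488 to 0.898 over 9 pairs, a range that includes the pairs within CD8H. The 3 highest beta segments held 50.4%, 34.8% and 33.7% of beta counts in the 3 CD8H tumors, and the 3 highest alpha segments 53.9%, 66.9% and 60.9% of alpha counts.

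Each CD8H tumor had a different leading alpha segment. These were Trav8d-2 in the first, with 44 of 191 alpha counts (23.04%, exact 95% interval 17.3 to 29.7%), Trav7-4 in the second, with 56 of 121 (46.3%, 37.2 to 55.6%), and Trav7-6 in the third, with 38 of 87 (43.7%, 33.1 to 54.7%). Trav7-6 (ENSMUSG00000096138, chr14:53716716-53717291, plus strand) had no count in the other 11 tumors. Its upper 95% bounds were 1.91% and 3.00% of alpha counts in the first and second CD8H tumors. Trav7-4 (ENSMUSG00000094766, chr14:53461099-53461738, plus strand) had 8 and 7 counts in the first and the third CD8H tumors, 1, 0 and 0 in ΔNK, 3, 0 and 2 in CD8L and 2, 1 and 0 in IgG tumors. Trav8d-2 (chr14:53042428-53042891, plus strand) had 1 and 4 counts in the second and the third CD8H tumors and 1 count elsewhere. The sequences of the leading Trav7 segments are given with Trav7d-4, a copy of Trav7-4 in the duplicated part of the locus, to show how close such copies are.

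Trav7-4: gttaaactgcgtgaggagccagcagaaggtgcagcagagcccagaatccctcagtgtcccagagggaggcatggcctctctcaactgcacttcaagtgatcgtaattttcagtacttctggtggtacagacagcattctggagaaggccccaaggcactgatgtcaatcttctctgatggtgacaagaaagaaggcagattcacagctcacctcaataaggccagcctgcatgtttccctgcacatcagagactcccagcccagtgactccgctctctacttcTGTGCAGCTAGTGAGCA
Trav7d-4: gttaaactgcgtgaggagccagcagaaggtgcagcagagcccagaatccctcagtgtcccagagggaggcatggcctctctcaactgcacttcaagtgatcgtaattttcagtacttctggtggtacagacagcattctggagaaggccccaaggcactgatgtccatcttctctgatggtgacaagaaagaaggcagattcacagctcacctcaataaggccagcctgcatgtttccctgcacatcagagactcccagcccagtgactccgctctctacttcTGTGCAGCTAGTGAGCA
Trav7-6: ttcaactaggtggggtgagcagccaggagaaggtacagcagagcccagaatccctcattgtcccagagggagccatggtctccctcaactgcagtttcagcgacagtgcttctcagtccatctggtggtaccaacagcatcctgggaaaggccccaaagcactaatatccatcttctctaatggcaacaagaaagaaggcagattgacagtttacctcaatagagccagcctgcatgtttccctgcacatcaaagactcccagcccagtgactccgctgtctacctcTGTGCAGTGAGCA
Trav8d-2: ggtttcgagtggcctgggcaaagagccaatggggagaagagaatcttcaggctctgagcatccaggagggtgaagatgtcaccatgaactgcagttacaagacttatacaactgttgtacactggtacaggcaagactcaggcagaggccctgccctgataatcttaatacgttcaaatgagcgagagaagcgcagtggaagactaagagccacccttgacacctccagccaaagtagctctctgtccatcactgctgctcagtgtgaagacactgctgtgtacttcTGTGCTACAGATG

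Trav7-4 and Trav7d-4 were equal at 339 of 341 bases. The 2 differences, counted from the first base of the start codon with the base of Trav7-4 first, were C20T and A207C. The second lies within the stretch shown. Even so, Trav7d-4 was counted apart, at 3, 6 and 1 counts in CD8H tumors. Of the 22 alpha members, Trav16n followed with 33, 3 and 7 counts in CD8H tumors, 0 in ΔNK, 2, 0 and 0 in CD8L and 0, 0 and 1 in IgG tumors. Trav10n had 26, 0 and 3 counts and Trav13-1 had 3, 19 and 0 counts in CD8H tumors. Among the 12 alpha members with at least 10 CD8H counts, 4 had over 80% of them in 1 tumor, against 1 of 17 beta members. These counts were not scaled to the V counts of the tumors, which were 1082, 443 and 312. Trbv1, Trav8d-2 and Trav10n had them in the first CD8H tumor, Trav13-1 in the second and Trav7-6 in the third. In ΔNK tumors the leading alpha segments were Trav14-1, with 3 counts in the first, and Trav17, with 5 of 11 alpha counts in the third. In CD8L and IgG tumors the alpha leaders had 1 to 6 counts a library, among them Trav12-3 and Trav4-4-dv10 in CD8L and Trav14n-3 and Trav13-1 in IgG tumors.

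**Figure D4:**
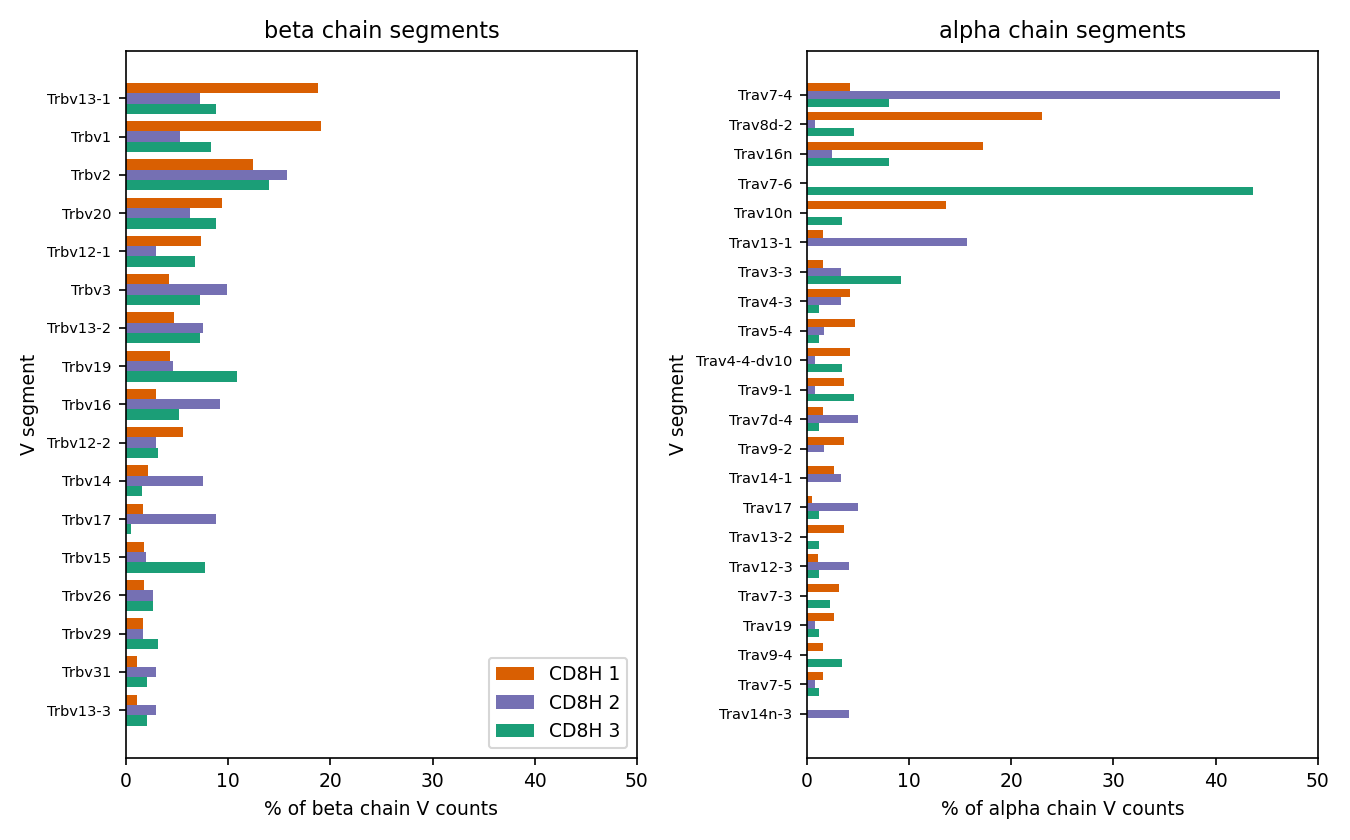
Share of each V segment in the beta counts (left) and alpha counts (right) of the 3 CD8H tumors, as percent of the chain's counts. Trbv1 and Trbv13-1 stand out in the first tumor at 19.1% and 18.8%, and each tumor has another alpha leader, Trav8d-2 at 23.04%, Trav7-4 at 46.3% and Trav7-6 at 43.7%.

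The alpha segments of invariant T cells had few or no counts. Trav11 and Trav11d, the segments of invariant NKT cells, had 0 counts in every library. They are 99.7% identical to each other, and 0.410% and 0% of their 100-base windows occur in no other V gene or V pseudogene. A count of 0 therefore does not bear on their level. Trav1, the segment of mucosal-associated invariant T cells, had 5 counts over all libraries, 3 of them in the first IgG tumor. The Trav14 copies, the family of the OT-I alpha chain, had 14 counts or fewer each. Of these, Trav14d-1, Trav14d-2, Trav14n-1 and Trav14n-2 had 0 counts. Every 100-base window of these copies also occurs in another V gene or V pseudogene, so their 0 counts do not bear on their level either. In all, 36 of the 144 V rows, 35 of them alpha, contained no 100-base window of their own, and all 36 had 0 counts. Of the 108 rows with at least 1 such window, 98 had counts. An identical coding copy existed for 32 of the 46 rows without counts and for none of the 44 members. How reads that match several copies were counted is not given in the sources used here. All alpha counts lay in rows with at least 1 window of their own. Whether reads of the other copies are missing from the alpha total was not tested. Every 100-base window of the 17 beta members, by contrast, occurred in no other V gene or V pseudogene.

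The number of segments detected followed the number of V counts. With at least 1 count, 42, 37 and 38 segments were detected in CD8H tumors, 19, 1 and 15 in ΔNK tumors, 32, 12 and 30 in CD8L tumors and 23, 17 and 26 in IgG tumors. Over each group's 3 tumors, 44 segments were detected in CD8H, 25 in ΔNK, 38 in CD8L and 34 in IgG tumors, from 1837, 57, 206 and 184 V counts. Thinned to the total of the smallest library, 35.4 to 41.5 segments were expected in CD8H tumors, 1.00 to 15.6 in ΔNK, 11.4 to 27.6 in CD8L and 16.5 to 23.6 in IgG tumors. At equal numbers of V counts the order did not persist. When each library was thinned to 23 V counts, 13.1, 14.1 and 14.4 segments were expected in CD8H tumors, 16.1 and 15.0 in the first and the third ΔNK tumors, 15.5, 12 and 15.4 in CD8L tumors and 13.7, 15.6 and 15.5 in IgG tumors. The second ΔNK tumor had too few V counts and was left out here and in all measures of make-up that follow. CD8H tumors held 0.978 fewer segments than the 8 other tumors (exact permutation p = 0.285, adjusted p = 0.427), and ΔNK tumors 1.43 more than the 6 PC-treated tumors (p = 0.214 by the same exact test, adjusted p = 0.427). PC-treated tumors held 14.1 ± 1.36 (SD, n = 6) segments at this depth and IgG tumors 14.9 ± 1.04 (SD, n = 3), with an exact permutation p of 0.405 (adjusted p = 0.486).

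**Figure D5:**
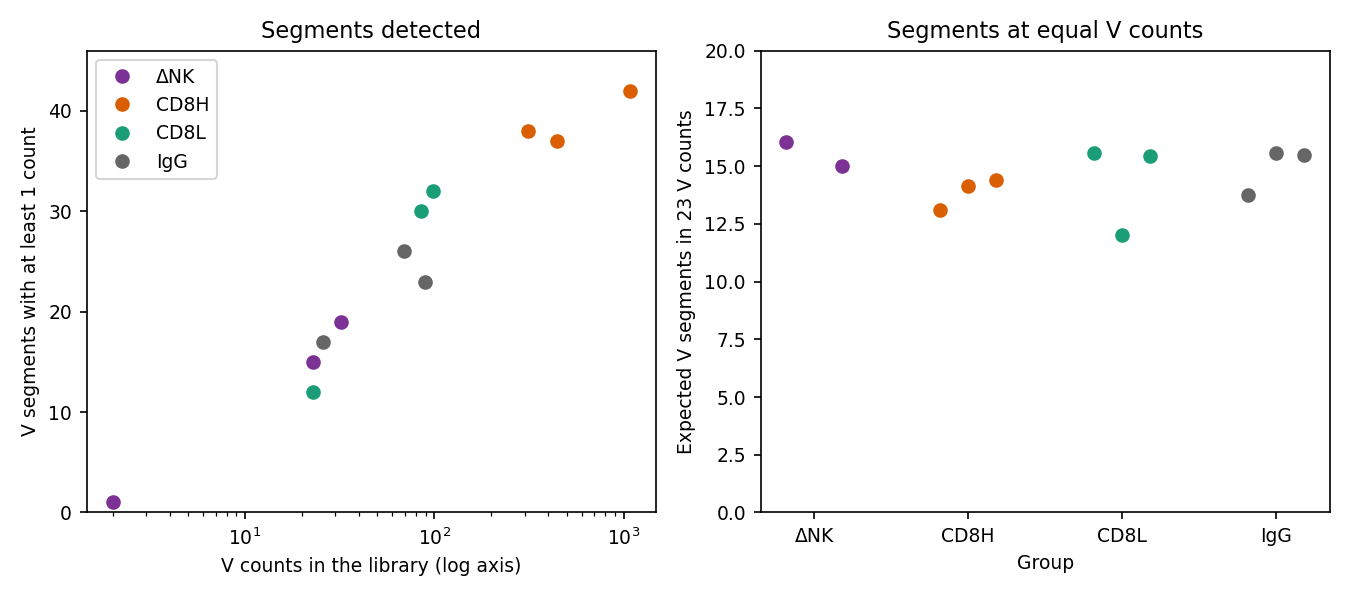
Left, number of the 44 V segments with at least 1 count against the V counts of each library (log axis), by group. Right, number of segments expected when each library is thinned to 23 V counts, for the 11 libraries with at least 20. Detected segments run from 1 at 2 V counts to 42 at 1082, whereas at equal V counts all libraries lie between 12 and 16.1.

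The share of the top segment did not set a group apart. The leader held 13.0% (Trbv1), 12.6% (Trav7-4) and 12.2% (Trav7-6) of V counts in CD8H tumors. It held 9.38% (Trav14-1, tied) and 21.7% (Trav17) in the first and the third ΔNK tumors, which rest on 3 and 5 counts. It held 15.3%, 17.4% and 11.8% in CD8L tumors, led by Trbv13-2, Trav4-4-dv10 (tied) and Trbv3, and 10.1%, 15.4% and 10.1% in IgG tumors, led by Trbv3, Trbv13-2 (tied) and Trbv13-2. Means were 12.6 ± 0.426% in CD8H tumors (SD, n = 3) and 13.9 ± 4.33% in the 8 others (SD, n = 8), with an exact permutation p of 0.667 (adjusted p = 0.667). Pooled by group, the leader was Trbv13-1 in CD8H tumors at 9.69% (exact 95% interval 8.37 to 11.1%), Trav17 in ΔNK at 8.77% (2.91 to 19.3%), Trbv13-2 in CD8L at 11.2% (7.21 to 16.3%) and Trbv3 in IgG tumors at 9.24% (5.47 to 14.4%). The intervals overlapped, and 4 groups had 4 different leaders. Pooling gives most weight to the tumor with the most V counts, and 139 of the 178 Trbv13-1 counts in CD8H tumors came from the first. With each CD8H tumor weighted equally, Trbv2 led at 9.33 ± 1.31% of V counts (SD, n = 3), with 8.50%, 10.8% and 8.65%, and Trbv13-1 followed at 7.75 ± 4.42%, with 12.8%, 4.97% and 5.45%. The leaders of the 3 other groups stayed as pooled, over the first and the third tumor in ΔNK. Scaled by gene length, as in the deposited FPKM values, the leader of the first CD8H tumor was Trbv13-1 (18.5 FPKM, 14.7% of the summed V FPKM), and those of the second and the third remained Trav7-4 and Trav7-6.

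Diversity was described by the effective number of segments, the inverse of the chance that 2 counts drawn from a library fall in the same segment. It was 14.4, 17.9 and 19.2 in CD8H tumors, 33.1 and 18.1 in the first and the third ΔNK tumors, 21.7, 14.1 and 23.03 in CD8L tumors and 18.8, 21.7 and 25.8 in IgG tumors. At few V counts this estimate is imprecise and can exceed the segments detected. It did so in the first and the third ΔNK tumors (19 and 15 detected, from 32 and 23 V counts). It also did so in the second CD8L and second IgG tumors (12 and 17 detected, from 23 and 26 V counts). The ΔNK mean rests on such values only. CD8H tumors averaged 17.2 ± 2.49 (SD, n = 3) and the 8 others 22.0 ± 5.69 (SD, n = 8), with an exact permutation p of 0.230 (adjusted p = 0.427). The ΔNK mean was 25.6 ± 10.6 (SD, n = 2) and the PC mean 18.4 ± 3.69 (SD, n = 6), with an exact permutation p of 0.179 (adjusted p = 0.427). In PC-treated against IgG tumors the difference was -3.71 (exact permutation p = 0.226, adjusted p = 0.427). Within CD8H tumors the effective number was 8.92, 12.8 and 13.1 for the beta chain and 8.93, 4.07 and 4.71 for the alpha chain. The lower beta value of the first tumor goes with its high shares of Trbv1 and Trbv13-1, and the lower alpha values of the second and the third with those of Trav7-4 and Trav7-6. Of the 3 comparisons and 4 measures tested, none passed the threshold after adjustment.

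Segments near the limit of 10 counts were spread thinly. The members with 10 to 12 counts were Trav7-5 (10), Trav9-2, Trav19 and Tcrg-V4 (11 each) and Trav9-4, Trav14n-3, Trav13-2 and Tcrg-V3 (12 each). Just outside lay Trav12-1, Trav13d-4, Trav13n-1, Trav16, Trav16d-dv11, Trav5-1 and Trav6n-6 with 9 counts and Trav10, Trav12-2 and Trav9n-4 with 8. Over the 54 rows with 1 to 9 counts, CD8H tumors had 172 counts, ΔNK 9, CD8L 36 and IgG tumors 39. The members held 89.9% of all V counts.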

How the data were processed

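V segment counts were taken from mRNA-seq of 12 intracranial tumors, 3 mice each for ΔNK, CD8H, CD8L and IgG, as grouped by the labels. The authors aligned paired-end reads of polyadenylated RNA to GRCm38.p6 with STAR 2.6.1d, used StringTie 1.3.3b and deposited counts per gene made with featureCounts 1.5.0-p3, with gene lengths and biotypes in the same table. They also deposited FPKM values, that is, counts per kilobase of gene and per size of library, and used DESeq2 1.26.0 for their own tests. The strand setting of counting is not given in the sources used here. Nor are the annotation release and the treatment of reads that match several genes.

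The deposited counts entered edgeR 4.0.16 (quasi-likelihood test, TMM normalization, filterByExpr, R 4.3.3) in 1 fit of all 12 libraries, with p-values adjusted over 17320 of 54532 genes. CPM are counts over library totals (16336993 to 26416214). Summed usage, thinned segment number (hypergeometric expectation), top share and inverse Simpson number were compared with two-sided exact permutation tests over libraries, adjusted over 12 tests. Libraries under 20 V counts (1 of 12) were left out of the last 3. Exact intervals were computed with scipy 1.17.1. Alternatives were DESeq2 1.42.0, limma voom (limma 3.58.1), other scaling and filters, FPKM, single chains, merged copies, a replicate block and leaving out each library. The edgeR and thinning steps were tested on simulated data. Replicate pairs differed by more than sampling noise (chi-square per degree of freedom 15.0 to 131). The members and lists were chosen with earlier results of these data known. The text names the 6 beta, 6 alpha and 2 gamma members and the delta member with the highest mean CPM, each library's leader, up to 4 called members per comparison by smallest p, segments of invariant T cells and the OT-I receptor, members with 10 to 12 counts and rows with 8 or 9, and Trbv2. Windows of 100 bases of the 144 V rows were compared with the transcripts of all V genes and V pseudogenes in GENCODE M21.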

Additional observations from a re-analysis of the deposited data

How the results depend on the processing

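Summed V usage kept its direction in every alternative, with CD8H against the 9 others between 3.45 and 4.26 (log2) when 1 library was left out, ΔNK against the PC-treated tumors between -4.45 and -2.72, and PC against IgG between 1.02 and 2.08. Segments at equal V counts ranged from -1.39 to -0.596, from 1.01 to 1.72 and from -1.44 to -0.422 in the same comparisons, the top share from -1.93 to -0.165, from 1.45 to 2.57 and from 0.954 to 3.59 percentage points, and the effective number from -5.995 to -3.28, from 6.32 to 8.12 and from -5.34 to -1.86. The number of segments reversed when it was not thinned, to 19.6 more in CD8H, a difference of -20.2 in ΔNK and 9.83 more in PC-treated tumors, since deeper V counts detect more segments. With deposited FPKM the effective number reversed to 2.56, -2.81 and 0.473. FPKM carry no counts, so the correction for few counts was not applied to them. Thinning to 100 V counts could give no comparison, since only the 3 CD8H libraries reach it, and leaving out the first or the third ΔNK library leaves 1 ΔNK library for the make-up measures. Alpha segments alone gave no comparison of the effective number and beta segments alone none of make-up with ΔNK tumors, for the same reason, and the second ΔNK library, without an alpha count, dropped out of alpha usage. No pseudogene row reached 10 counts, so adding them changed nothing.

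Members called by edgeR without 1 library were 9 to 13 in CD8H against the 3 others and 9 to 12 in ΔNK against CD8H. The number of members tested changed between these fits. Without the first ΔNK tumor, 13 of 13 tested were called in CD8H against the 3 others (23.4% of all genes). With all libraries 9 of 9 were (26.3%). For ΔNK against CD8H these fits called 11 of 13 (19%) and 9 of 9 (30.3%). The counts were 0 to 8 in CD8H against CD8L and 0 to 1 in CD8H against IgG. They were 0 to 5 in ΔNK against the mean of CD8H and CD8L and 0 in the 4 other comparisons. With all libraries 11.2%, 0.745%, 10.1% and at most 0.0173% of all genes were called there. With every member tested (a minimum of 10 summed counts), 21 of 44 were called in CD8H against the others (18.2% of all genes, in either direction here and below), 17 in ΔNK against CD8H (19.6%), 0 in CD8H against IgG (0%) and 2 in ΔNK against the PC mean (5.56%). With any gene above 0 tested, the first 2 were 23 (12.8%) and 17 (13.5%). DESeq2 called 8 of 9 in CD8H against CD8L (24.2%), 7 in CD8H against IgG (12.1%) and 8 in ΔNK against the PC mean (22.7%), with no adjusted p for Trbv1. Limma voom called 2 in ΔNK against the PC mean (9.21%). Fits of the compared libraries alone called 0 in CD8H against CD8L and 0 in CD8H against IgG, where no gene was called, and 1 in ΔNK against the PC mean (5.67%). Deviations from the group means correlated at -0.36 to 0.73 (median 0.221) between libraries with the same replicate number and at -0.725 to 0.704 (median -0.140) between others. Since not every same-numbered pair was over 0.1, and not every library correlated best with its own number, the numbers were not taken to pair the libraries. In ΔNK and CD8L alone all 3 pairs were over 0.1 (0.476 to 0.587), and a block called no gene in that comparison. A replicate block gave 5 calls in CD8H against IgG (5.10% of all genes, against 0.745% without it) and 7 in ΔNK against the PC mean (14.2% against 10.1%). Over all alternatives, calls of single members in single comparisons were kept 479 times and lost 78 times, and none changed sign. No loss fell in CD8H against the 3 others or ΔNK against CD8H, 33 of 99 values lost the call in CD8H against CD8L, 11 of 20 in CD8H against IgG (Trbv2) and 34 of 80 in ΔNK against the PC mean, where Trbv16 was lost in 12 of 20 and Trbv2 in 11 of 20.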

Other observations

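Joining and diversity segments and immunoglobulin V genes, which lie outside the 44 segments, were highest in the same group. Rows annotated as joining segments had 169, 157 and 85 counts in CD8H tumors, against 6, 1 and 3 in ΔNK, 8, 7 and 35 in CD8L and 52, 13 and 22 in IgG tumors. Immunoglobulin V genes, which B cells and plasma cells transcribe, were at 11.5, 6.64 and 12.6 CPM in CD8H tumors, 0.127, 0.184 and 0.506 CPM in ΔNK, 0.379, 0.444 and 0.731 CPM in CD8L and 4.94, 5.12 and 0.846 CPM in IgG tumors. In this the IgG tumors lay above the CD8L tumors, which was not tested.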
